A study of Mus musculus with 22 samples.

Results

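Apolipoproteins are the proteins that coat lipoproteins, the particles that carry fat and cholesterol in blood, and most of them are made in the liver. The set described here holds 10 apolipoprotein genes: Apoa1, Apoa2, Apoa4, Apoa5, Apob, Apoc1, Apoc3, Apoe, Apof and Apom. A probe belonged to the set when the array's annotation gave it one of these symbols, which was the case for 15 of 45281 probes and for 10 of the 19057 genes named on the array. Apoa4 had 3 probes, Apoa2, Apoc1 and Apom had 2 each, and the others had 1 each, and the probes of a gene are numbered below from the brightest.

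The study measured mRNA in microdissected liver of female C3H mice on an Illumina bead array, with 22 arrays in 4 groups. TCPOBOP, a compound that activates the nuclear receptor CAR in mouse liver and drives hepatocyte growth, was given by stomach tube at 3 mg/kg once a week for 28 weeks (3 arrays) or for 42 weeks (7 arrays). In the DENA plus TCPOBOP group (9 arrays), mice first received the liver carcinogen DENA at 90 mg/kg by intraperitoneal injection and, after a recovery week, weekly TCPOBOP for 28 weeks. The control group (3 arrays) received the vehicle, DMSO in corn oil, without DENA or TCPOBOP; its titles are abbreviated and were read as the controls that the series' design counts. Hepatocellular carcinomas had formed by the end of both regimens, per the labels, but the labels do not say which array holds tumour and which holds other liver. They also do not tie arrays to animals or give the age of each control, so all 3 treated groups were compared with the same 3 controls and p-values measure the spread between arrays.

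Apolipoproteins divide by particle and by role. ApoB is the structural protein of the triglyceride-rich very low density lipoprotein (VLDL) and of LDL. ApoA1 and apoA2 are the main proteins of high density lipoprotein (HDL), apoM carries sphingosine 1-phosphate on HDL, and apoF is known in humans as an inhibitor of lipid transfer between particles. ApoE is the ligand by which hepatic receptors take up remnant particles. ApoC1 and apoC3 slow the lipolysis and uptake of triglyceride-rich particles, apoA5 promotes their lipolysis, and apoA4, a protein of chylomicrons and HDL, helps the liver to secrete larger VLDL. Apoa1, Apoc3, Apoa4 and Apoa5 lie next to each other on mouse chromosome 9, and Apoe and Apoc1 lie next to each other on chromosome 7, in the RefSeq annotation of GRCm38.p6.

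All 15 probes were detected above background on all 22 arrays, and most lay among the brightest of the array. Levels are given as log2 of the authors' normalized intensity, a table in which the brightest probe of every array has the same value, 15.50. The mean over the 22 arrays was 15.16 for Apoe, 15.13 for Apoa2 probe 1, 14.92 for Apoa1 and 14.90 each for Apoc1 probe 1 and Apoa4 probe 1. The dimmest were Apoa2 probe 2 at 12.29 and Apoa5 at 10.06. Levels of different probes are not comparable as amounts of RNA.

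The closeness to the top of the scale bears on what the bright probes can show. Apoe lay within 0.5 log2 of the top on 19 of 22 arrays, Apoa2 probe 1 on 18, Apoa4 probe 1 on 13, Apoc1 probe 1 on 11, Apoc3 on 10 and Apoa1 on 8. Among the 51 probes with a mean level of 15 or more, the median distance between the highest and the lowest array was 0.66 log2, against 1.35 log2 for the 323 probes with a mean between 13 and 14. In the same bins 9.80% and 50.2% of probes differed between TCPOBOP 42 weeks and control. For the 78 probes in the next bin below 15, which holds Apoa1, the median distance was 1.02 log2 and 38.5% were called. The bins were set by the mean over all 22 arrays. A bright probe that is much lower on some arrays falls into a lower bin, so these contrasts are partly fixed by the binning. Apoa4 probe 1, with a range of 2.79 and a mean of 14.90, is such a probe. A small change of Apoe or Apoa2 probe 1 on this scale does not bound the change of the mRNA, and folds of probes near the top are folds of the normalized intensity only.

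**Figure D1:**
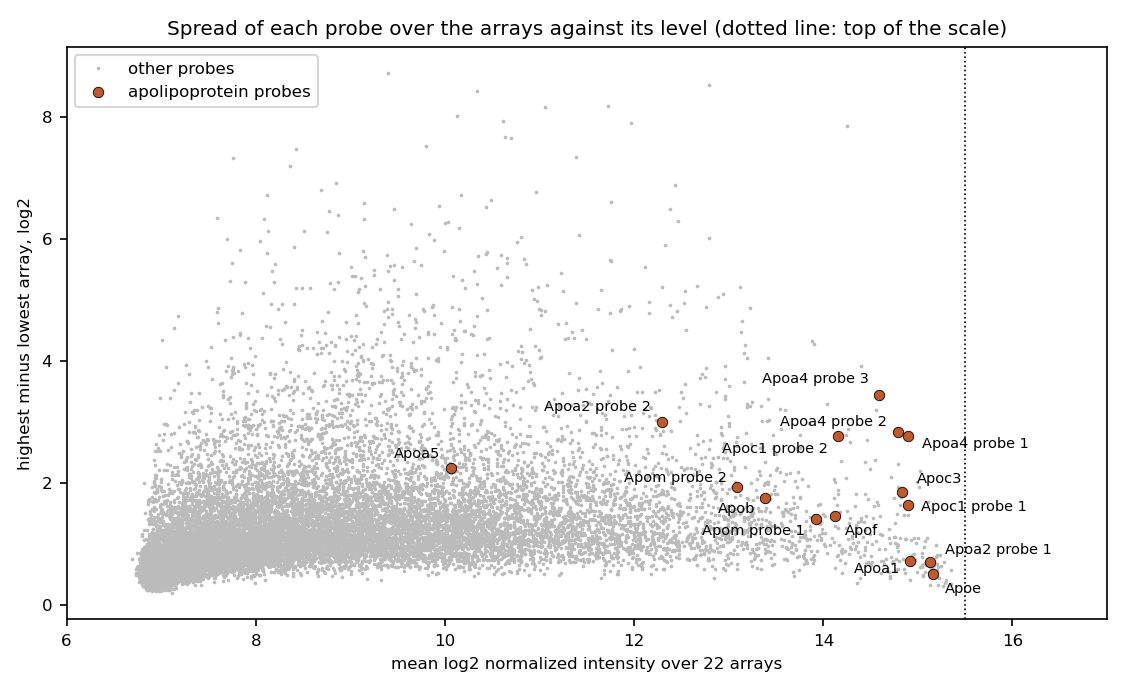
Highest minus lowest array (vertical, log2) against the mean log2 normalized intensity over 22 arrays (horizontal) for the 22622 probes kept for testing, with the 15 apolipoprotein probes marked and the top of the scale as a dotted line. Apoe, Apoa1 and Apoa2 probe 1 sit near the top with ranges of 0.51, 0.74 and 0.71, and Apoa4 probe 3 has the widest range of the set, 3.44.

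Apoa4 was the 1 gene of the 10 that rose in all 3 treated groups, and it did so on each of its 3 probes. Probe 1 had 14.96, 15.34 and 15.18 log2 units on the TCPOBOP 28 weeks arrays. On the TCPOBOP 42 weeks arrays the lowest, median and highest values were 14.92, 15.23 and 15.37, and on the DENA plus TCPOBOP arrays they were 14.83, 15.21 and 15.27. The controls had 13.95, 13.27 and 12.58.

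Every treated array lay above every control array, the controls differed among themselves by more than 1 log2 unit, and the treated arrays crowded below the top of the scale. The change of probe 1 against control was 1.89 ± 0.22 (SE) at 28 weeks of TCPOBOP, a 3.71-fold difference on the intensity scale (limma adjusted p = 7.59e-06). At 42 weeks it was 1.89 ± 0.19 (limma adjusted p = 1.61e-07), and after DENA plus TCPOBOP 1.88 ± 0.18 (limma adjusted p = 1.09e-07).

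The estimates were larger for probes 2 and 3. For probe 2 the changes were 2.07 ± 0.22, 1.92 ± 0.19 and 2.02 ± 0.18 in the order TCPOBOP 28 weeks, TCPOBOP 42 weeks and DENA plus TCPOBOP. Probe 3, the dimmest of the 3 in controls at 12.47 ± 0.47 (SD, n = 3), had the widest separation. Its TCPOBOP 28 weeks arrays had 15.39, 15.02 and 15.29, against 12.87, 12.60 and 11.95 in controls. That is a change of 2.76 ± 0.29, or 6.76-fold, at 28 weeks, beside 2.37 ± 0.24 (5.17-fold) at 42 weeks and 2.41 ± 0.24 (5.33-fold) after DENA plus TCPOBOP. None of the 9 comparisons of an Apoa4 probe between 2 treated groups passed the test, with differences between −0.39 and 0.11.

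**Figure D2:**
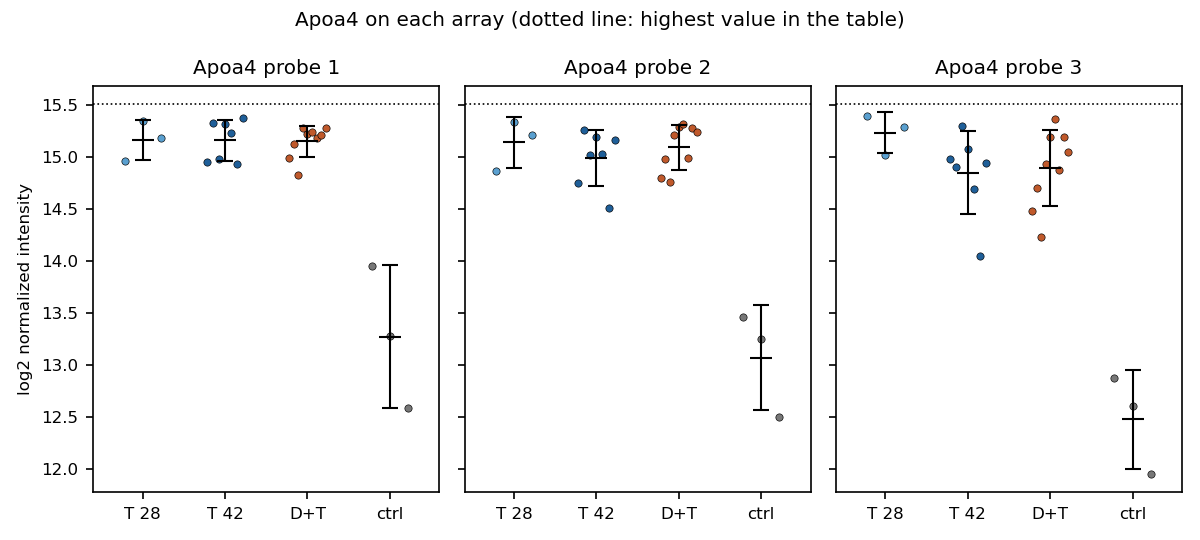
Log2 normalized intensity (vertical) of the 3 Apoa4 probes on each array, for TCPOBOP 28 weeks (T 28, n = 3), TCPOBOP 42 weeks (T 42, n = 7), DENA plus TCPOBOP (D+T, n = 9) and control (ctrl, n = 3), with bars for the mean and SD and a dotted line at 15.50, the highest value in the table. All treated arrays lie above all controls on each probe, and the control mean is 13.27, 13.07 and 12.47 for probes 1, 2 and 3.

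The Apoa4 difference was present within slides, the only technical grouping in the files. A slide is a chip that carries several arrays, and the 22 arrays came from 4 slides. On the slides that held both groups, probe 1 was 1.39 and 2.60 higher at 28 weeks of TCPOBOP than the control on the same slide, 1.26 higher at 42 weeks, and 1.87 and 2.63 higher after DENA plus TCPOBOP. Leaving out any 1 array, or using any other processing tried, kept all 9 Apoa4 calls against control. Without the brightest control array the 28-week change of probe 1 was 2.23, and without the dimmest it was 1.55.

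The sequence just upstream of Apoa4 is shown beside those of its neighbours Apoa1 and Apoa5, since the 3 genes lie close together on the chromosome and gave different results. Each stretch holds the 250 bases before the RefSeq transcription start on the plus strand of GRCm38.p6 (for Apoa5, before the first of its 2 listed starts), and capitals mark matches to CAAAGNNCA on either strand, the letters of an element of the kind bound by the liver receptor HNF4A.
Apoa1 (chr9:46228380-46228629): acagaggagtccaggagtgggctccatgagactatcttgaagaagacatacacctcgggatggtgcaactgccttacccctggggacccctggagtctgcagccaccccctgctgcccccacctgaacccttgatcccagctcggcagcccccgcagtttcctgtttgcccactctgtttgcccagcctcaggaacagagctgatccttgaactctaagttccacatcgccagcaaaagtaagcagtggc
Apoa4 (chr9:46240594-46240843): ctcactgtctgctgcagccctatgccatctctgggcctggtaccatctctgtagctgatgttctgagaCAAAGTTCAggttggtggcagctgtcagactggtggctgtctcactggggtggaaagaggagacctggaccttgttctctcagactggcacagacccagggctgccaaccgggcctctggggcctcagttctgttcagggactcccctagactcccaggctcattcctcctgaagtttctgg
Apoa5 (chr9:46268358-46268607): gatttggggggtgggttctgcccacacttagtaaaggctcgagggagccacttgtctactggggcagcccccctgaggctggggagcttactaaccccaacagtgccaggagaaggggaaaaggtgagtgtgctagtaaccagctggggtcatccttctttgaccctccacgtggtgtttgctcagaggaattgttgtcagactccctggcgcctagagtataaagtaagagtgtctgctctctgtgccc

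Apoa4 held 1 such match, which begins 182 bases before the start, and Apoa1 and Apoa5 held none. The motif was present in 5.49% of the 32851 promoter stretches of the same length in the RefSeq table. Of the other members in that table, the stretch before Apob held 1 match and those before Apoa2, Apoe and Apom held none. A direct repeat of AGNTCA with 4 bases between the copies, of the kind CAR binds, was found on either strand in 0.103% of the stretches and before none of these 7 members. The same repeat with 1 base between the copies was found in 0.183% of the stretches and also before none of these members, Apoa4 included. The matches are descriptions of the letters in these windows.

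Counted by the brightest probe of each gene, 1 of the 10 genes was called higher and 0 lower at 28 weeks of TCPOBOP against control, where 6.04% of all genes tested were called (3.45% higher, 2.59% lower). At 42 weeks 1 was called higher (Apoa4) and 3 lower (Apoa5, Apoc1 and Apof), against 31.9% of all genes (14.6% higher, 17.3% lower). After DENA plus TCPOBOP 1 was called higher and 0 lower, against 26.3% (11.6% higher, 14.7% lower). The members' share of calls was near that of all genes at 42 weeks and below it after DENA plus TCPOBOP, so these counts are no result about apolipoproteins as a set. A call is an adjusted p under 0.05 in a limma fit over all 4 groups, adjusted over all 22622 tested probes. By probe, 3 of 15 were called at 28 weeks, 8 of 15 at 42 weeks and 4 of 15 after DENA plus TCPOBOP, beside 5.19%, 28.8% and 23.0% of all probes. The median change over the 10 genes was −0.05, −0.13 and −0.07, beside medians of −0.02, −0.01 and −0.01 over all genes.

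**Figure D3:**
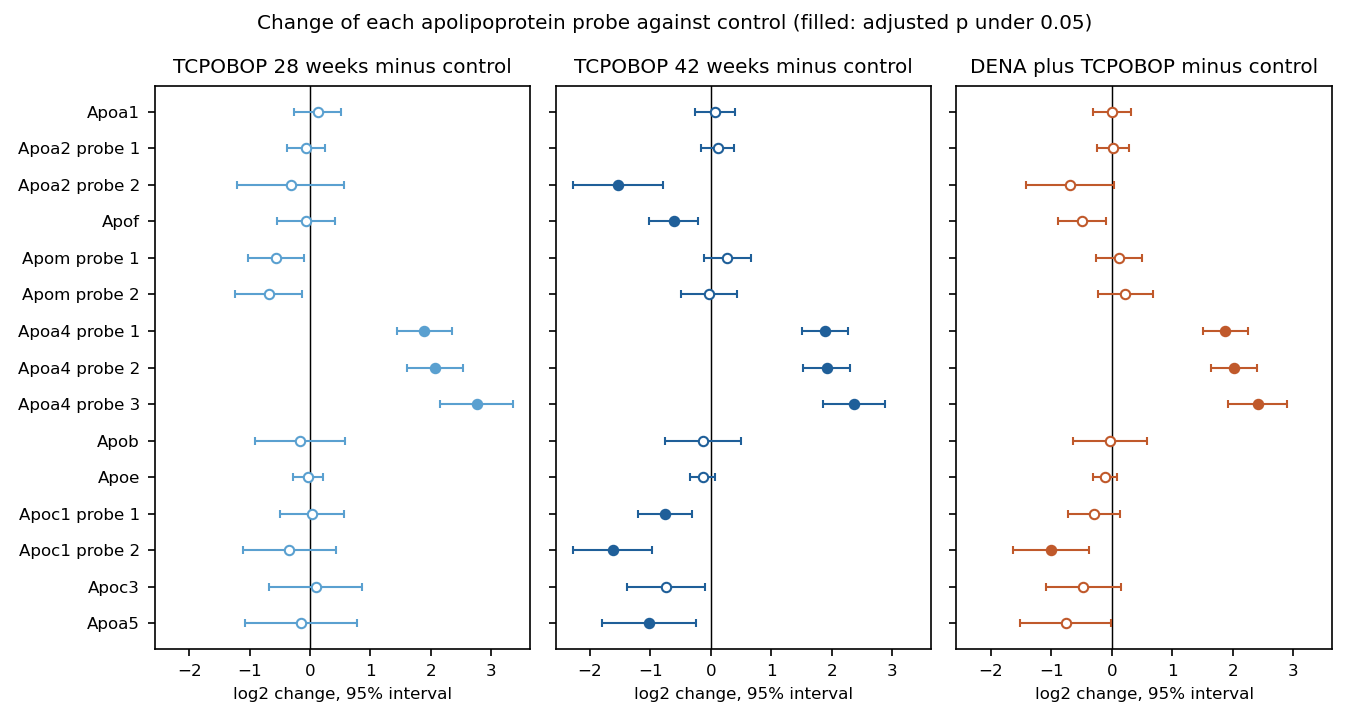
Log2 change against control (horizontal) with its 95% interval for the 15 apolipoprotein probes (rows), in TCPOBOP 28 weeks, TCPOBOP 42 weeks and DENA plus TCPOBOP, with filled points for adjusted p under 0.05. The 3 Apoa4 probes lie near 2 or above in all 3 panels, while 3, 8 and 4 of the 15 points are filled.

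Among the chromosome 9 neighbours of Apoa4, Apoa1 showed no called difference. It had 14.76, 15.32 and 14.94 at 28 weeks of TCPOBOP, 14.58 to 15.15 with a median of 15.09 at 42 weeks, and 14.61 to 15.22 with a median of 14.89 after DENA plus TCPOBOP, against 15.24, 14.70 and 14.71 in controls. All 3 treated groups overlapped the controls. The 95% intervals of the change ran from −0.26 to 0.51, from −0.26 to 0.39 and from −0.31 to 0.32.

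Apoc3 had 15.32, 15.28 and 15.43 at 28 weeks of TCPOBOP, against 15.43, 15.06 and 15.25 in controls. At 42 weeks it spread from 13.63 through a median of 14.55 to 15.50, and after DENA plus TCPOBOP from 14.27 through 14.82 to 15.39. Both of these groups reached from well below the controls up to their level. The change was −0.75 ± 0.31 at 42 weeks (limma adjusted p = 0.0798) and −0.47 ± 0.30 after DENA plus TCPOBOP (limma adjusted p = 0.303), and neither was called. Without TCPOBOP 42 weeks replicate 3, the array at the top of the scale, the 42-week change was −0.91 and was called (limma adjusted p = 0.0176), and without replicate 1 it was −0.86 (limma adjusted p = 0.0421).

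Apoa5, the activator of lipolysis, had 10.70, 10.64 and 10.39 at 28 weeks of TCPOBOP and 8.67 to 10.60 with a median of 9.79 at 42 weeks. After DENA plus TCPOBOP it ran from 8.81 through 9.89 to 10.75, and the controls had 10.92, 10.50 and 10.73. The 42-week arrays overlapped the controls by 1 array and were much more scattered, with an SD of 0.75 against 0.21. The 42-week change of −1.02 ± 0.38 was called (limma adjusted p = 0.0462), but it was not called without any 1 of 7 of the 10 arrays involved (all 3 controls and TCPOBOP 42 weeks replicates 2, 4, 5 and 7), where adjusted p reached 0.147. With slide as a block it was −1.22 and not called (limma adjusted p = 0.0576). After DENA plus TCPOBOP the change was −0.76 ± 0.36 (limma adjusted p = 0.145).

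Outside the apolipoproteins of this cluster, Sik3 on the Apoa1 side and Bud13 on the Apoa5 side were not called in any comparison with control. Zpr1, which directly follows Apoa5, was 0.69 ± 0.21 higher at 42 weeks (limma adjusted p = 0.0190) and 0.69 ± 0.21 higher after DENA plus TCPOBOP (limma adjusted p = 0.0186). The Zpr1 calls were not kept without control replicate 2 or 3, nor with each array of the non-normalized table centred on its median. That setting replaces the authors' normalization. With the slide as a block the 42-week change of Zpr1 was 0.33.

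On chromosome 7, Apoc1 fell at 42 weeks of TCPOBOP on both probes. Probe 1 had 15.36, 15.09 and 15.39 at 28 weeks, 13.75 to 15.32 with a median of 14.46 at 42 weeks, and 14.57 to 15.30 with a median of 14.89 after DENA plus TCPOBOP, against 15.29, 15.32 and 15.15 in controls. At 42 weeks 6 of the 7 arrays lay below all controls, and replicate 3 did not. The 42-week change was −0.76 ± 0.21 (limma adjusted p = 0.0101), and with slide as a block it was −0.68 and not called (limma adjusted p = 0.0583).

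Probe 2 of Apoc1, which is less bright, showed the larger difference. It had 14.46, 14.85 and 15.06 at 28 weeks of TCPOBOP, 12.46 to 14.77 with a median of 13.36 at 42 weeks, and 13.67 to 14.81 with a median of 13.99 after DENA plus TCPOBOP, against 15.02, 15.24 and 15.13 in controls. Neither the 42-week nor the DENA plus TCPOBOP arrays overlapped the controls. At 42 weeks the change was −1.62 ± 0.31 (limma adjusted p = 0.00050), a 3.08-fold difference in normalized intensity, with all 3 controls within 0.5 log2 of the top of the scale. It kept its call in every alternative and with any 1 array left out. After DENA plus TCPOBOP it was −1.004 ± 0.304 (limma adjusted p = 0.0197), and this call was not kept without any 1 of the 3 controls, where adjusted p was 0.0514, 0.0833 and 0.0692. At 28 weeks the change was −0.34 ± 0.37 (limma adjusted p = 0.736).

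Apoe, next to Apoc1, had 15.25, 15.19 and 15.22 at 28 weeks of TCPOBOP, 14.88 to 15.37 with a median of 15.14 at 42 weeks, and 14.86 to 15.31 with a median of 15.16 after DENA plus TCPOBOP, against 15.21, 15.23 and 15.31 in controls. The groups overlapped, and the changes of −0.03 ± 0.12, −0.13 ± 0.10 and −0.11 ± 0.10 were not called. The lowest Apoe value on any array was 14.86, so the whole range lies near the top of the scale.

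Apoc2 and Apoc4 also lie in this cluster and are not among the 10. Apoc4, whose protein is a minor VLDL component, ranged over 12.92 to 13.65 in the TCPOBOP 28 weeks group, 11.78 to 13.94 in the TCPOBOP 42 weeks group and 13.02 to 13.85 in the DENA plus TCPOBOP group, against 14.53 to 14.81 in controls. All 3 treated groups lay below the controls without overlap. The change was −1.24 ± 0.36 at 28 weeks (limma adjusted p = 0.0505), −1.85 ± 0.31 at 42 weeks (limma adjusted p = 1.07e-04) and −1.18 ± 0.30 after DENA plus TCPOBOP (limma adjusted p = 0.00557). Apoc2, the activator of lipoprotein lipase, was not called against control in any group, and its 2 probes moved in opposite directions at 42 weeks and after DENA plus TCPOBOP.

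Among the HDL proteins, the 2 probes of Apoa2 gave different results. Probe 1 had 14.72, 15.36 and 15.01 at 28 weeks of TCPOBOP, 15.06 to 15.43 with a median of 15.18 at 42 weeks and 14.85 to 15.34 with a median of 15.13 after DENA plus TCPOBOP, against 15.34, 14.81 and 15.15 in controls. It was not called in any comparison, with changes against control between −0.07 and 0.11. Probe 2 had 12.59, 12.82 and 12.94 at 28 weeks, 10.63 to 12.64 with a median of 11.64 at 42 weeks, and 11.46 to 13.18 with a median of 12.31 after DENA plus TCPOBOP, against 12.65, 13.64 and 13.03 in controls.

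The 42-week arrays of Apoa2 probe 2 all lay below the controls, although the nearest pair, TCPOBOP 42 weeks replicate 3 at 12.64 and control replicate 1 at 12.65, almost touched. The change was −1.54 ± 0.36 (limma adjusted p = 0.00261), a 2.91-fold difference, and it kept its call under every alternative, with a change of −1.08 with slide as a block. After DENA plus TCPOBOP it was −0.69 ± 0.35 (limma adjusted p = 0.169). The probes' positions on the transcripts were not used here, so which of the 2 probes follows the Apoa2 mRNA cannot be told.

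Apof had 14.51, 14.32 and 14.57 at 28 weeks of TCPOBOP, 13.45 to 14.35 with a median of 13.97 at 42 weeks, and 13.17 to 14.45 with a median of 14.13 after DENA plus TCPOBOP, against 14.496, 14.644 and 14.450 in controls. All 42-week arrays lay below all controls. The 42-week change of −0.62 ± 0.20 was called (limma adjusted p = 0.0221). It was not called without any 1 of the 3 controls (adjusted p = 0.0546, 0.1005 and 0.0502), and with slide as a block it was −0.32 (limma adjusted p = 0.280). On the 1 slide that held both groups the difference was −0.70. After DENA plus TCPOBOP the change was −0.49 ± 0.19 (limma adjusted p = 0.0658).

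Apon, the gene next to Apof on chromosome 10, is no member but moved in the same direction with a larger change. It ranged over 11.58 to 12.30 in the TCPOBOP 28 weeks group, 9.60 to 11.23 in the TCPOBOP 42 weeks group and 9.28 to 12.11 in the DENA plus TCPOBOP group, against 12.374 to 12.997 in controls. Its change was −2.48 ± 0.42 at 42 weeks (limma adjusted p = 1.19e-04) and −1.99 ± 0.40 after DENA plus TCPOBOP (limma adjusted p = 8.92e-04).

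Apom had called differences between treated groups, given further below, and none against control. A call in 1 comparison and none in another does not show that the changes differ. Probe 1 had 13.28, 13.55 and 13.06 at 28 weeks of TCPOBOP, 13.88 to 14.48 with a median of 14.11 at 42 weeks and 13.42 to 14.35 with a median of 14.10 after DENA plus TCPOBOP, against 14.06, 13.96 and 13.56 in controls. Probe 2 had 12.72, 12.42 and 12.10 at 28 weeks, 12.44 to 13.35 at 42 weeks and 12.76 to 14.05 after DENA plus TCPOBOP, against 12.98, 13.33 and 12.99 in controls. On both probes the 28-week arrays were the lowest group and lay below all controls. That difference, −0.56 ± 0.22 and −0.68 ± 0.26, was not called (limma adjusted p = 0.170 and 0.162). In that comparison 5 of the 15 apolipoprotein probes had groups that did not overlap, beside 30.0% of all probes.

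Apob, the structural protein of VLDL, showed no called difference in any of the 6 comparisons. It had 13.82, 12.92 and 13.14 at 28 weeks of TCPOBOP, 12.76 to 13.67 with a median of 13.36 at 42 weeks, and 12.85 to 14.52 with a median of 13.17 after DENA plus TCPOBOP, against 13.40, 13.70 and 13.29 in controls. All groups overlapped. The changes against control were −0.17 ± 0.36, −0.13 ± 0.30 and −0.03 ± 0.29, and the widest of the 95% intervals ran from −0.91 to 0.58. The highest Apob array, at 14.52, stayed clear of the top of the scale.

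**Figure D4:**
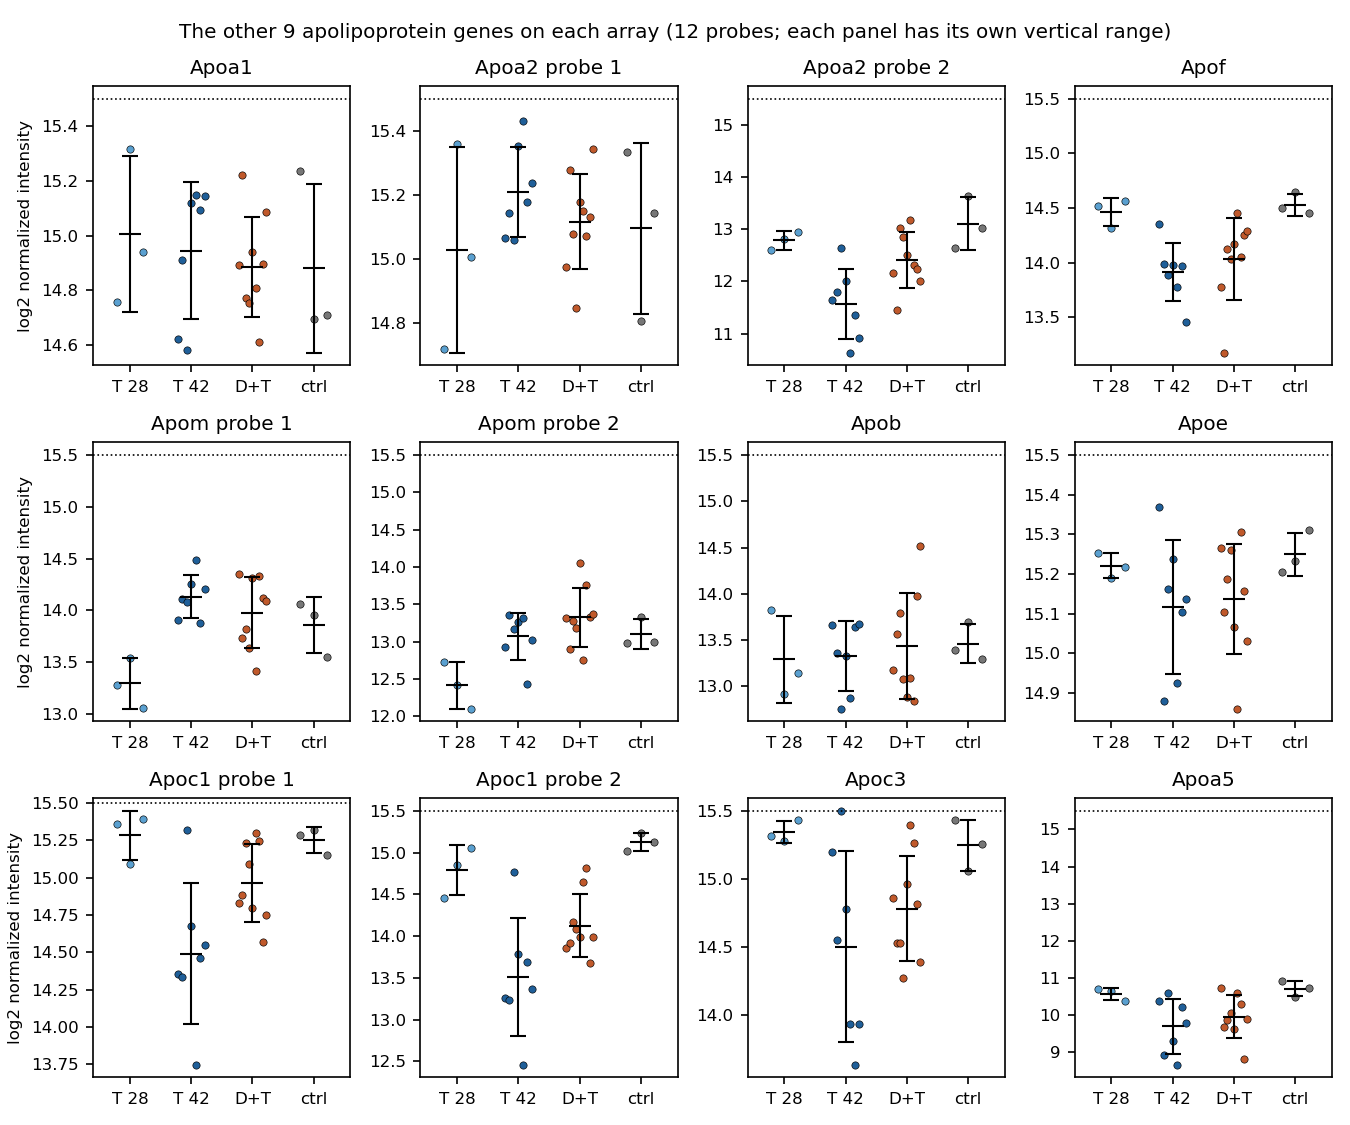
Log2 normalized intensity (vertical, separate range per panel) of the 12 probes of the other 9 genes on each array, for TCPOBOP 28 weeks (T 28), TCPOBOP 42 weeks (T 42), DENA plus TCPOBOP (D+T) and control (ctrl), with bars for the mean and SD and a dotted line at 15.50. Apoc1 probe 2 and Apoa2 probe 2 are lowest at 42 weeks, with means of 13.51 and 11.57 against 15.13 and 13.11 in controls, and Apom is lowest at 28 weeks.

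Between the treated groups, 42 against 28 weeks of TCPOBOP gave 1 gene higher (Apom) and 1 lower (Apoc1) of 10, beside 13.6% of all genes called (6.20% higher, 7.42% lower), and 4 of 15 probes, beside 11.5% of all probes. Apom probe 1 was 0.84 ± 0.19 higher at 42 weeks (limma adjusted p = 0.00585) without overlap, and probe 2 was 0.65 ± 0.22 higher (limma adjusted p = 0.0621). Apoc1 probe 1 was 0.79 ± 0.21 lower on the log2 scale (change −0.79, limma adjusted p = 0.0193), and probe 2 changed by −1.28 ± 0.31 (limma adjusted p = 0.0109). Apoa2 probe 2 changed by −1.22 ± 0.36 (limma adjusted p = 0.0317).

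These calls depend on at least 1 array of the 28-week group. Without TCPOBOP 28 weeks replicate 3, adjusted p was 0.0589 for Apom probe 1, 0.0993 and 0.0768 for the Apoc1 probes and 0.131 for Apoa2 probe 2. With each array of the non-normalized table centred on its median, none of these probes was called (limma adjusted p = 0.138, 0.0821, 0.0533 and 0.0928 in the same order). The animals were killed at the end of each course, so length of treatment and age cannot be told apart here. Any difference in tumour content between these groups cannot be told apart from them either, since the labels do not say which arrays hold tumour.

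DENA plus TCPOBOP against TCPOBOP alone, both for 28 weeks of TCPOBOP, gave 1 gene higher (Apom) and 0 lower of 10, beside 12.4% of all genes (5.54% higher, 6.83% lower), and 2 of 15 probes, beside 10.8% of all probes. Apom was 0.68 ± 0.18 higher on probe 1 (limma adjusted p = 0.0174) and 0.91 ± 0.22 higher on probe 2 (limma adjusted p = 0.00941). Without TCPOBOP 28 weeks replicate 3 neither probe was called (limma adjusted p = 0.129 and 0.0891). The same held with each array of the non-normalized table centred on its median (limma adjusted p = 0.219 and 0.202). DENA treatment and any difference in tumour content cannot be told apart in this comparison. DENA plus TCPOBOP against 42 weeks of TCPOBOP gave 0 calls among the 10 genes and among the 15 probes, beside 2.05% of all genes (0.927% higher, 1.12% lower) and 2.04% of all probes. At an unadjusted p under 0.05 the 3 probes Apoa2 probe 2 (0.85 ± 0.26), Apoc1 probe 1 (0.47 ± 0.16) and Apoc1 probe 2 (0.62 ± 0.23) were higher after DENA plus TCPOBOP. Without TCPOBOP 42 weeks replicate 3 all 3 were called (limma adjusted p = 0.0213, 0.0120 and 0.0154).

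By the gap between neighbouring values, no array was set apart in any of the 30 groups of member values examined, but the position of that array within its group bears on these results. TCPOBOP 42 weeks replicate 3 had the highest value of its group for Apoc1 probe 1 (15.32), Apoc1 probe 2 (14.77), Apoc3 (15.50), Apoa2 probe 2 (12.64) and Apoa5 (10.60), and the lowest for Apoa1 (14.58) and Apoa2 probe 1 (15.06). Principal components were computed over the brightest kept probe of each named gene. On the first, which held 42.9% of the variance, replicate 3 lay at −6.42, against −28.0 to −17.7 for the other 6 arrays. DENA plus TCPOBOP replicate 6 lay at 13.1, against −22.7 to −5.99 for the other 8, with 25.5 to 28.4 for TCPOBOP 28 weeks and 53.7 to 58.9 for controls. This array had the highest value of its group for Apoc1 probe 1 (15.30), Apoc3 (15.39), Apof (14.45) and Apoa2 probe 2 (13.18). Without it the Apof change against control was −0.55 and was called (limma adjusted p = 0.0366). The labels do not say whether these arrays differ in tumour content.

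**Figure D5:**
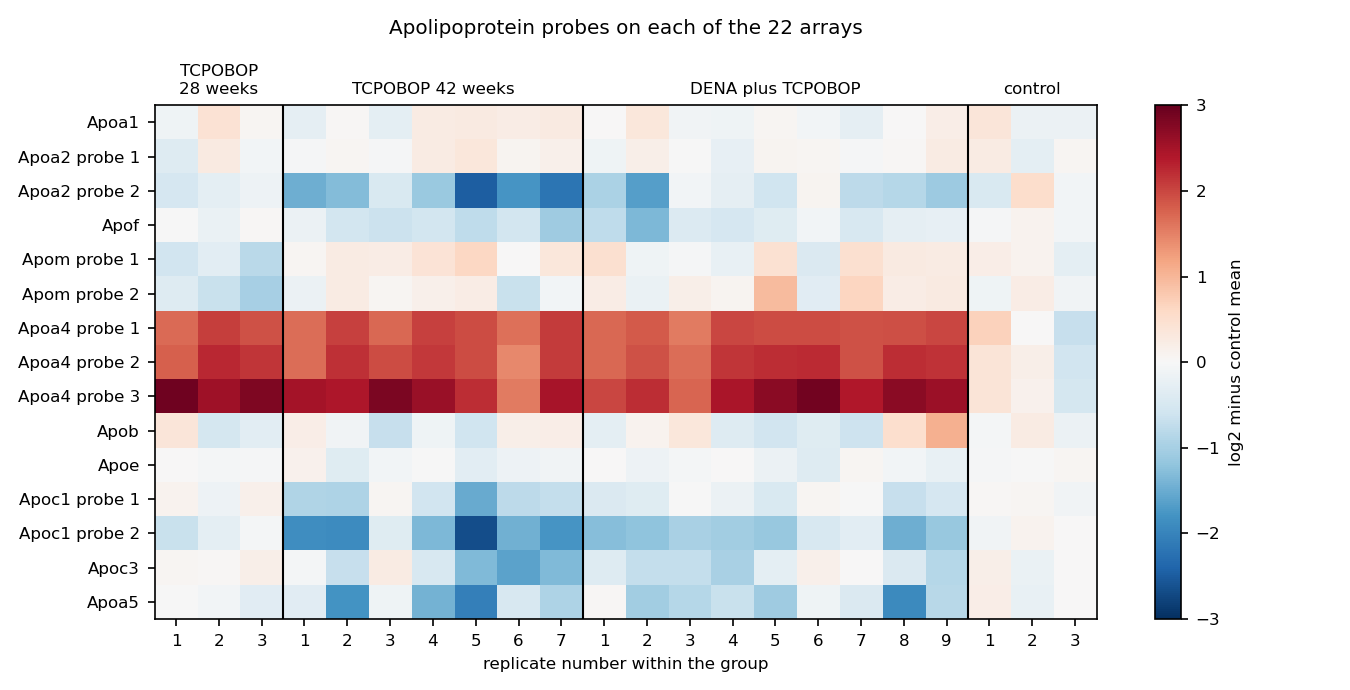
Difference from the control mean (colour, log2) of the 15 apolipoprotein probes (rows) on each of the 22 arrays (columns, numbered within their group). The Apoa4 rows are positive on all 19 treated arrays, and Apoc1 probe 2 is negative on all 19, least so on TCPOBOP 28 weeks replicate 3.

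Within the groups large enough to ask, members showed no relation to each other that passed correction. Over the brightest probes, 45 pairs of genes were compared across the 7 arrays of TCPOBOP 42 weeks and 45 across the 9 arrays of DENA plus TCPOBOP. Of these 90 relations 5 had an unadjusted exact permutation p under 0.05 and 0 an adjusted one, with a smallest adjusted p of 0.589 for Pearson r and 0.25 for Spearman rho. At 42 weeks the pair with the largest r was Apoa1 and Apoc3, with r = −0.86 (rho = −0.70, exact permutation p = 0.0171 before correction), and r was −0.42 without the 2 arrays farthest in Apoa1. Apoa1 and Apoa2 gave r = 0.83 (rho = 0.96) at 42 weeks and r = 0.70 (rho = 0.82) after DENA plus TCPOBOP, with exact permutation p = 0.0268 and 0.0363 before correction. The others under 0.05 were Apoa2 and Apom (r = 0.83, exact permutation p = 0.0202) and Apoa5 and Apom (r = −0.77, exact permutation p = 0.0431), both at 42 weeks and before correction. Apoa2 and Apoe gave r = −0.62 (rho = −0.82) after DENA plus TCPOBOP, with an exact permutation p of 0.0751 for r before correction. Without the 2 arrays farthest in Apoa1, r of Apoa1 and Apoa2 was 0.68 and 0.78. At 42 weeks the 3 arrays of slide 1 all lay below the 4 arrays of slide 2 for both Apoa1 and Apoa2. With the slide means removed, a step chosen after seeing the data, r of Apoa1 and Apoa2 was 0.43 at 42 weeks and 0.81 after DENA plus TCPOBOP, and r of Apoa1 and Apoc3 was −0.59. In the same way r of Apoa2 and Apom was 0.89 and that of Apoa5 and Apom −0.74 at 42 weeks. Without the 2 arrays farthest in the first gene of each pair, these were 0.40 and −0.73. Apoa1, Apoa2 and Apoe lie near the top of the scale, and single slides hold too few arrays for a value of their own.

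Of 16 measured genes of lipoprotein assembly, 2 were called higher and 0 lower at 28 weeks of TCPOBOP, 4 and 2 at 42 weeks, and 4 and 2 after DENA plus TCPOBOP. Beside these stand 6.04%, 31.9% and 26.3% of all genes called in either direction, and the list at 42 weeks is near its background. Apobec1, the enzyme that edits Apob mRNA, was 1.01 ± 0.21 higher at 28 weeks (limma adjusted p = 0.00541), 1.07 ± 0.18 at 42 weeks and 0.84 ± 0.17 after DENA plus TCPOBOP. Sar1b, which helps to move lipoproteins out of the endoplasmic reticulum, was 0.99 ± 0.23, 0.83 ± 0.19 and 0.55 ± 0.19 higher. Mttp, the protein that loads lipid onto apoB, was 0.43 ± 0.14 higher at 42 weeks (limma adjusted p = 0.0251) and 0.49 ± 0.13 after DENA plus TCPOBOP (limma adjusted p = 0.0104). Dgat2, an enzyme of triglyceride synthesis, changed by −1.50 ± 0.20 and −0.86 ± 0.19 in those groups, and Cideb, a factor in VLDL lipidation, by −1.92 ± 0.41 and −1.37 ± 0.39.

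Of the 15 measured plasma lipases, transfer proteins and HDL enzymes, 1 was called higher in each comparison with control, and 0, 6 and 4 were called lower in the order TCPOBOP 28 weeks, TCPOBOP 42 weeks and DENA plus TCPOBOP, beside 2.59%, 17.3% and 14.7% of all genes called lower. The gene that rose was Lpl, lipoprotein lipase, the enzyme that hydrolyses the triglyceride of lipoproteins. It had 12.20 to 12.48 at 28 weeks, 12.97 to 13.83 at 42 weeks and 12.59 to 13.60 after DENA plus TCPOBOP, against 10.57 to 11.07 in controls. Its changes were 1.57 ± 0.27, 2.64 ± 0.23 and 2.29 ± 0.22, called in all 3 groups (limma adjusted p = 7.17e-04, 2.24e-08 and 1.08e-07). Pon1, an HDL esterase, changed by −3.92 ± 0.64 at 42 weeks and −2.50 ± 0.62 after DENA plus TCPOBOP. Lcat, which esterifies HDL cholesterol, changed by −1.37 ± 0.14 and −1.21 ± 0.13. Angptl8, an inhibitor of lipoprotein lipase, changed by −1.80 ± 0.60 at 42 weeks.

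Of the 10 measured receptors and clearance genes, 0 were called higher, and 0, 3 and 2 were called lower in the same order. Beside these stand 2.59%, 17.3% and 14.7% of all genes called lower. In either direction, 31.9% and 26.3% of all genes were called at 42 weeks and after DENA plus TCPOBOP. With 10 genes, these counts are no result about the list. Lrp1, a receptor for apoE-bearing remnants, changed by −1.43 ± 0.21 at 42 weeks and −1.06 ± 0.20 after DENA plus TCPOBOP. Lrpap1, its chaperone, changed by −0.91 ± 0.21 and −1.15 ± 0.20, and Sdc1, a proteoglycan that binds remnants, by −0.84 ± 0.27 at 42 weeks.

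Of 23 measured transcription factors known to act on apolipoprotein genes, 0 were called higher and 1 lower at 28 weeks of TCPOBOP, 0 and 9 at 42 weeks, and 2 and 8 after DENA plus TCPOBOP, where 2.59%, 17.3% and 14.7% of all genes were called lower. Ppara, the receptor for fatty acids, changed by −0.56 ± 0.12 at 28 weeks (limma adjusted p = 0.00852), −0.74 ± 0.10 at 42 weeks and −0.64 ± 0.10 after DENA plus TCPOBOP. Nr1h4, the bile acid receptor FXR, changed by −0.98 ± 0.14 and −1.01 ± 0.14 in the last 2 groups, and Cebpa by −1.45 ± 0.23 and −1.25 ± 0.22. Srebf1 changed by −1.91 ± 0.25 and −1.47 ± 0.25, and Nr1d1 by −1.27 ± 0.23 and −1.53 ± 0.23. Hnf4a, whose element was searched for above, was not called in any comparison with control, with changes of −0.26 ± 0.14, 0.21 ± 0.12 and 0.25 ± 0.11. Of the 8 other measured genes named as apolipoproteins, 0 were higher and 0, 3 and 3 were lower, beside 2.59%, 17.3% and 14.7% of all genes. The 3 were Apon, Apoc4 and Apoh, a phospholipid-binding plasma protein with changes of −1.35 ± 0.27 at 42 weeks and −0.82 ± 0.26 after DENA plus TCPOBOP.

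Markers of the cell types of liver differed between groups. All 18 hepatocyte markers were detected on every TCPOBOP 28 weeks and control array, 16 on every TCPOBOP 42 weeks array and 17 on every DENA plus TCPOBOP array. Their summed intensity ran over 350199 to 352894 in the TCPOBOP 28 weeks group, 339366 to 364262 in the TCPOBOP 42 weeks group and 320496 to 373053 after DENA plus TCPOBOP, against 371797 to 417660 in controls. Of these 18, 0 were higher and 0, 7 and 4 were lower, beside 2.59%, 17.3% and 14.7% of all genes. Alb, albumin, changed by −1.19 ± 0.29 at 42 weeks, while Ttr, transthyretin, did so by 0.19 ± 0.13 and was not called; Ass1, Tat, Fgb and Fabp1 changed by −2.10, −1.92, −1.74 and −1.19 at 42 weeks.

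Endothelial and stellate markers had lower sums at 42 weeks and after DENA plus TCPOBOP. The summed intensity of 12 endothelial markers was 10043 to 12410 at 28 weeks, 2390 to 5044 at 42 weeks and 2663 to 8237 after DENA plus TCPOBOP, against 11610 to 14697 in controls, with 8 of 12 lower at 42 weeks, beside 17.3% of all genes. Clec4g among them changed by −3.69 ± 0.69, Gpr182 by −2.14, Oit3 by −1.88 and Stab2 by −1.87. After DENA plus TCPOBOP 7 of the 12 were lower, beside 14.7% of all genes. The sum of 11 stellate markers was 18507 to 20637, 3370 to 9823 and 2691 to 10447, against 22271 to 26150 in controls. Of these 11, 1 was higher and 6 lower at 42 weeks, beside 14.6% and 17.3% of all genes. After DENA plus TCPOBOP 0 were higher and 7 lower, beside 11.6% and 14.7%. At 42 weeks Ecm1, Reln and Dcn were lower and Col1a1 was higher (changes −3.14, −3.03, −2.45 and 2.45).

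The sum of 14 Kupffer cell and macrophage markers, cells that also express Apoe and Apoc1, was 11346 to 14487 at 28 weeks, 6919 to 28455 at 42 weeks and 6049 to 12045 after DENA plus TCPOBOP, against 5748 to 6554 in controls. Of these 14 markers 5, 6 and 2 were higher, beside 3.45%, 14.6% and 11.6% of all genes, and 0, 1 and 0 lower. Cd14 changed by 1.59 ± 0.39, 2.22 ± 0.33 and 1.96 ± 0.32, C1qc by 1.36, 0.84 and 0.65, and Lyz2 and Gpnmb by 1.53 and 2.75 at 42 weeks. The 3 measured bile duct markers, Sox9 among them, gave 0 calls in the comparisons with control. Of 6 measured lymphocyte and neutrophil markers S100a8 was higher at 28 weeks (2.08 ± 0.47) and S100a9 lower at 42 weeks (−0.70 ± 0.22). In bulk tissue fewer cells of a type and less RNA per cell cannot be told apart, and the part of these shifts in the Apoc1, Apoa5, Apof and Apoa2 probe 2 differences was not tested.

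The genes most like the members over the 22 arrays were ranked by Pearson r of log2 levels, a description that mostly follows the 4 groups. For Apoa4 they were Pnliprp1 (r = 0.98), a pancreatic lipase-related gene, Fez2 (r = 0.92) and Serpinb6a (r = 0.92). Pnliprp1 averaged 14.76 ± 0.04, 15.12 ± 0.11 and 15.07 ± 0.11 log2 units (SD) in the 3 treated groups, against 9.30 ± 1.71 in controls (n = 3). For Apoa5 they were Gatd3a (r = 0.84), Trafd1 (r = 0.79) and Cisd1 (r = 0.79). For Apoc3 they were Ifitm3 (r = 0.88), Ifitm1 (r = 0.87) and Slco2a1 (r = 0.85), and for Apom Saal1 (r = 0.84), Nudcd3 (r = 0.81) and Polr1b (r = 0.79). Ifitm3 also scattered widely at 42 weeks, with 11.95 ± 1.18 (SD, n = 7), against 13.86 ± 0.15 in controls (n = 3).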

How the data were processed

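Total RNA from microdissected liver was labelled as biotin cRNA and hybridised to Illumina bead arrays, per the labels; the scans were read out with BeadStudio 3.0.19.0, per the submitters' processing notes. The authors deposited a normalized intensity table (no background subtracted, the same top value on every array), a non-normalized intensity table, and detection p-values for each. The authors' normalization method is not given in the sources used here; the values of the series table equal the normalized table.

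Groups and replicate numbers came from sample titles, and slides from array positions. Here log2 of the normalized table was fitted with limma 3.58.1 in R 4.3.3 (lmFit, eBayes), 4 groups in 1 fit and 6 contrasts, on 22622 probes detected (p under 0.05) on 3 or more arrays, with Benjamini-Hochberg adjustment over all of them. For counts of genes, the probe with the highest mean stood for its gene; 34885 probes had 1 symbol, 18 several and 10378 none, and probes with several or none named no gene. The fit was tested on simulated data. Arrays had 34.8% to 42.6% of probes detected, and the number of arrays limits the precision.

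The members and the gene lists were chosen with earlier results of these data known. All 10 members are named with every probe; from each list up to 4 called genes with the largest change against control, plus Hnf4a, Ppara, Mttp, Apoc2, Alb and Ttr, and the 3 most similar genes for the 4 members with the widest range of group means. Zpr1, Sik3 and Bud13 were named as chromosomal neighbours outside this rule, after their values were seen. Same-numbered arrays of different groups were compared: 3 of 22 pairs correlated above 0.1 in their deviations (range −0.17 to 0.18). The median was 0.037, against −0.005 for pairs with other numbers. Such weak correlations cannot exclude a pairing, and the main fit did not treat the numbers as pairs. Alternatives covered background correction, normalization, filter, slide, replicate number, weights, moderation and left-out arrays. Promoters came from RefSeq (GRCm38.p6) and included 7 of the 10 members. Exact permutation tests of correlations were two-sided (SciPy). A further protocol with earlier times was not analysed here.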

Additional observations from a re-analysis of the deposited data

How the results depend on the processing

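The calls on the 3 Apoa4 probes against control, on Apoc1 probe 2 and on Apoa2 probe 2 at 42 weeks kept direction and threshold under all alternatives tried, left-out arrays included. No called value of an apolipoprotein probe changed sign under any alternative. Of 1653 alternative values that were uncalled before and after, 96 changed sign, all with a change of at most 0.17. Some alternatives cannot alter the change of a probe: the series table, other filters, other moderation and fits of only the 2 groups compared. Their values are among the 1653, so this share does not measure stability. The comparisons rest on 3 controls and 3 arrays at 28 weeks, on a scale that ends at 15.50.

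Median centring took log2 of the non-normalized table, in place of the authors' normalization, and centred each array on its median. It gave 538, 4228 and 3171 called probes against control at 28 weeks, 42 weeks and after DENA plus TCPOBOP (1175, 6513 and 5214 in the fit reported), and 2 called members at 42 weeks in place of 4. It gave 1127 probes and 0 members between 42 and 28 weeks of TCPOBOP (2608 and 2), 1064 and 0 between DENA plus TCPOBOP and TCPOBOP 28 weeks (2447 and 1), and 1 probe between DENA plus TCPOBOP and TCPOBOP 42 weeks (461). The share of higher calls was then 20.5% and 26.3% in the first 2 of these, in place of 45.3% and 45.9%. Background correction (normexp) followed by cyclic loess gave 64.1% higher calls at 28 weeks against control, in place of 53.4%. The same correction followed by quantile normalization gave 60.5%, a stricter filter on dim probes 61.4% and median centring 61.7%. With array weights that share was 46.7%. Array weights gave 3053 probes at 28 weeks against control, 4284 probes and 4 members for 42 against 28 weeks, 4495 probes for DENA plus TCPOBOP against TCPOBOP 28 weeks, and 2 members for DENA plus TCPOBOP against control (1 in the fit reported). Fitting only the 2 groups compared gave 3020 probes at 28 weeks against control and 203 for DENA plus TCPOBOP against TCPOBOP 42 weeks.

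With slide as a fixed block, 1 member was called at 42 weeks against control, 2 after DENA plus TCPOBOP, 2 for DENA plus TCPOBOP against TCPOBOP 28 weeks, and 0 probes for DENA plus TCPOBOP against TCPOBOP 42 weeks. With slide as a random block that last count was 209, and with no filter on dim probes 237. With the replicate number as a block, called probes numbered 1098, 5620 and 4272 against control and 1965, 1665 and 611 in the comparisons between treated groups, and 1 member (Apoc1) was called for DENA plus TCPOBOP against TCPOBOP 42 weeks in place of 0, and Apoc1 probe 2 after DENA plus TCPOBOP was not called (limma adjusted p = 0.0520). The causes of these differences were not tested.

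Leaving out 1 array at a time gave 1 member at 28 weeks against control, 2 to 5 at 42 weeks, 1 to 2 after DENA plus TCPOBOP, 0 to 3 for 42 against 28 weeks, 0 to 1 for DENA plus TCPOBOP against TCPOBOP 28 weeks, and 0 to 1 against TCPOBOP 42 weeks. Called probes ran from 676 to 767, 4497 to 6784, 3584 to 5430, 1174 to 2934, 1005 to 2929 and 176 to 1317 in the same comparisons.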
